A study of Mus musculus with 8 samples.

Results

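The Hox genes are the 39 rows of the expression table whose mouse symbol is Hoxa, Hoxb, Hoxc or Hoxd followed by a number, out of 27179 rows. They were chosen by symbol alone and comprise 11 HoxA genes on chromosome 6, 10 HoxB genes on chromosome 11, 9 HoxC genes on chromosome 15 and 9 HoxD genes on chromosome 2. Each of the 39 Entrez identifiers matched the RefSeq annotation of GRCm38.p6, which is the mm10 genome to which the deposited peaks refer. RNA came from C2C12 cells, a clonal line of immortalized mouse muscle precursors, which keep dividing in rich medium and fuse into multinucleated myotubes when serum is withdrawn. GM samples were dividing cells at 50% confluence in high glucose DMEM with 10% fetal bovine serum, and 3d DM samples had been kept for 3 days in high glucose DMEM with 2% horse serum after passing 90% confluence. All cells grew on dishes coated with type 1 rat tail collagen, and no other agent or genetic change is given for either state. In each state there were 2 input RNA libraries, which give expression, and 2 libraries of the same kind of RNA precipitated with an antibody against N6-methyladenosine (m6A), which give m6A peaks. Serum, confluence and time differ together between GM and 3d DM and cannot be told apart.

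Hox genes encode transcription factors that bind DNA through a homeodomain and give cells along the body axis and limbs their positional identity. They lie in clusters in which the order of the genes follows their order of use from head to tail. Genes of the same number in different clusters descend from a common ancestor and form a paralog group, and cells grown in culture often keep the Hox genes of the place from which they came. Polycomb complexes hold Hox clusters silent, Trithorax complexes keep them active, and many Hox proteins bind DNA together with TALE homeodomain proteins of the Pbx and Meis families.

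A set of 4 sequences at Hox m6A peaks is shown because the deposited peaks of all 4 lists covered them. The coding parts run up to and include the stop codon, and capitals in the windows mark GGAC, the core of the motif in which m6A is most often placed. Hoxc10 (chr15:102970820-102971075, mm10, plus strand, exon 2) held no GGAC in this coding part, nor did Hoxc9 (chr15:102984090-102984139, plus strand). The windows of 26 bases lie in untranslated RNA, at chr15:102971217-102971242 behind the Hoxc10 stop codon and at chr15:103034575-103034600 in the 5′ untranslated region of Hoxc4. The window in Hoxc4 held the only GGACT of the regions shared by all 4 lists. Sequences are those of GENCODE release M21 transcripts.
Hoxc10 coding end: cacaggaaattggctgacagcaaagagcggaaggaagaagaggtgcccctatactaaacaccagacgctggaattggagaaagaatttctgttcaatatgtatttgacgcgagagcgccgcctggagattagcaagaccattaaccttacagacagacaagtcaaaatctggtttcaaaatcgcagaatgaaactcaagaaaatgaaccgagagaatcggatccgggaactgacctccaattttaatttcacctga
Hoxc9 coding end: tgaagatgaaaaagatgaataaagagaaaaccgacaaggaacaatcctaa
Hoxc10 window: cttcttccaagGGACctatggttcgt
Hoxc4 window: tccttatccggGGACtgggttgctcg

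HoxC and HoxA genes accounted for almost all Hox RNA in both states, HoxB genes for little, and HoxD genes, listed at 0, for none. Values were TMM-normalised by the authors, a scaling meant to make columns comparable, and levels of different genes are given per kb of RefSeq exon. Trimmed means of log ratios still differed between the columns, with log2 factors from 0.214 in GM replicate 1 to -0.343 in 3d DM replicate 1. HoxC held 69.6% and 70.9% of the summed Hox value per kb in the GM replicates and 69.7% and 69.2% in the 3d DM replicates. HoxA held 29.5% and 27.5% in GM against 29.1% and 29.5% in 3d DM. HoxB held between 0.9% and 1.6% in the 4 libraries. For each cluster the shares in GM and 3d DM overlapped. In bulk RNA, fewer cells with a transcript and less of it in each cell cannot be told apart.

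**Figure D1:**
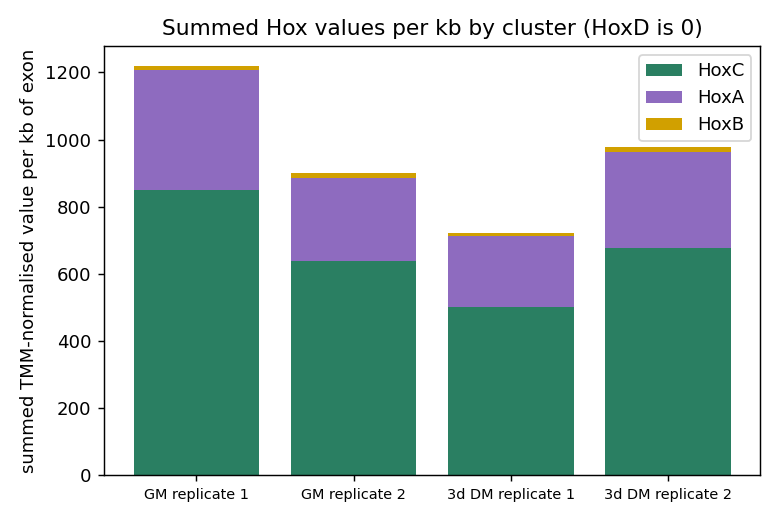
Stacked bars of the summed TMM-normalised value per kb of exon (vertical axis, from 0) in each of the 4 input libraries, coloured by cluster. HoxC made up 69.2% to 70.9% and HoxA 27.5% to 29.5% of every bar.

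All 9 HoxD genes were listed at 0 in all 4 libraries. They range from Hoxd1, an anterior gene, to Hoxd13, which patterns the digits. Of the genes that flank the cluster, Lnpk, which shapes the endoplasmic reticulum, had values of 324 and 478 in GM against 251 and 329 in 3d DM, and Mtx2, a mitochondrial import factor, had 514 and 481 in GM against 320 and 482 in 3d DM. Evx2, a homeobox gene next to Hoxd13, was listed at 0 in all 4 libraries. A listed 0 can also come from the counting, since the ribosomal protein gene Rpl39, picked after its values were seen, was at 0, 1.0, 2.21 and 0 in the same order of libraries. Of 39 proteasome subunit genes, used as a set that every cell needs, 3 were at 0 in at least 1 library.

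Of the 10 HoxB genes, Hoxb1 and Hoxb8 were listed at 0 throughout, and Hoxb4 had the highest values, 18.9 and 16.1 in GM against 15.3 and 19.2 in 3d DM. Hoxb3 followed with 4.12 and 8.02 in GM against 0.427 and 10.9 in 3d DM, a spread between the 3d DM replicates wider than that between states. No other HoxB gene exceeded 6.01 in any library. None of the 10 reached the filter for testing, a value of 25.1 (2 cpm of the column total) in at least 2 libraries.

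Within HoxA and HoxC the posterior genes, those of paralog groups 9 to 13, held most of the RNA. They made up 65.4% and 68.5% of the HoxA value per kb in GM against 65.0% and 60.5% in 3d DM, and 86.1% and 82.7% of the HoxC value in GM against 77.3% and 78.7% in 3d DM. For HoxC the share was lower in both 3d DM replicates than in both GM replicates. In HoxB the order was the other way round, with paralog groups 1 to 4 holding 59.4% to 81.3% of a sum that was small in every library. Of the 7 paralog groups that have both a HoxA and a HoxC gene, the HoxC gene was higher per kb in 6, and in 5 with the GENCODE M21 exon lengths, an alternative chosen after the data were seen.

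**Figure D2:**
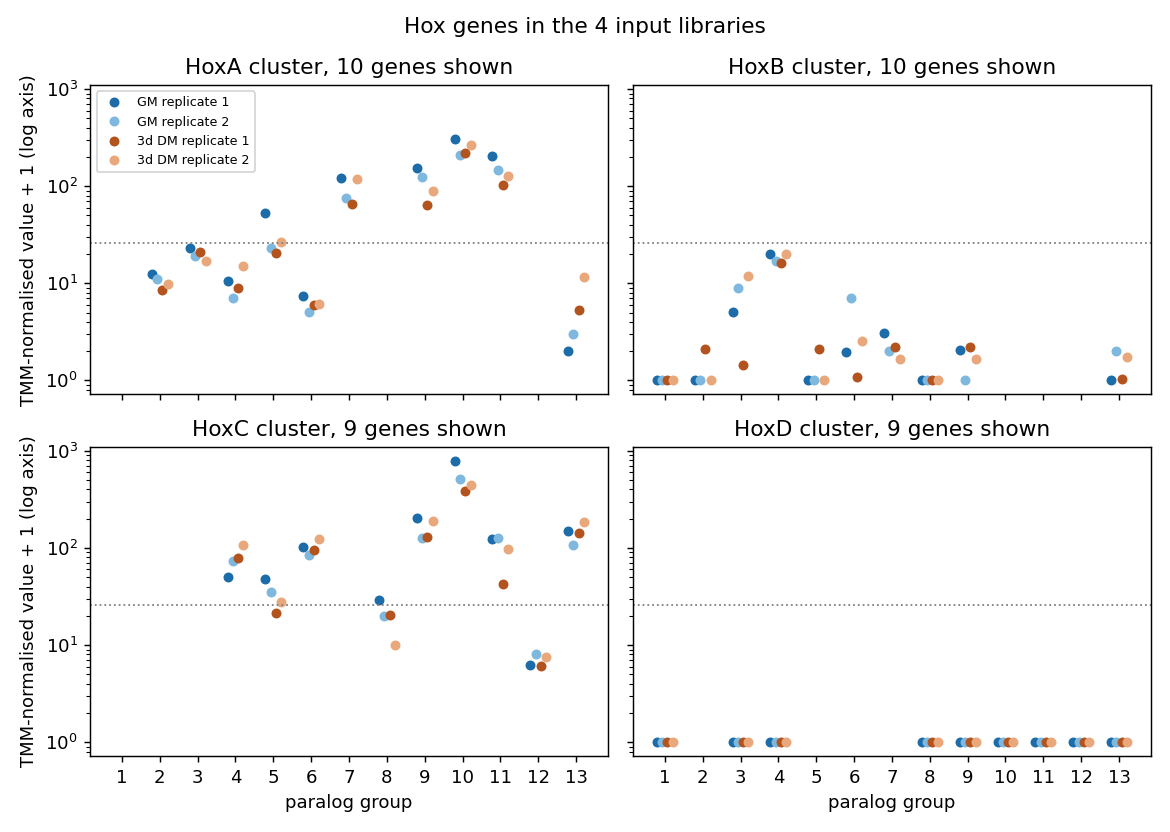
TMM-normalised value plus 1 (log axis) of 38 Hox genes in the 4 input libraries, by cluster and paralog group; the dotted line is the filter for testing. Values are highest at paralog group 10 in HoxA and HoxC, stay under the line in HoxB and lie on the lower edge, at 0, for the 9 HoxD genes.

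Per kb of exon, Hoxc10 was the most abundant Hox RNA in each of the 4 libraries, at 412 and 266 in GM against 203 and 234 in 3d DM. Hoxc11 had 134 and 137 in GM against 45.8 and 104 in 3d DM, and Hoxc9 117 and 73.6 in GM against 75.4 and 110 in 3d DM. The values of Hoxc10 lay above those of both in all 4 libraries, whereas Hoxc11 and Hoxc9 overlapped. The place of Hoxc11 depended on its exon length, which is 915 nt in RefSeq and 2021 nt in GENCODE M21, and with GENCODE lengths its mean over the 4 libraries was 47.7 in place of 105 per kb, below Hoxa10, Hoxc9, Hoxa11 and Hoxc13. Hoxc10 was first with both. Hoxa10, at 98.1 and 66.1 in GM against 69.2 and 84.5 in 3d DM, was the highest HoxA gene per kb and overlapped with Hoxc9. Hoxc6, Hoxa11, Hoxc13, Hoxa7, Hoxc4 and Hoxa9 followed with means over the 4 libraries from 63.3 down to 33.1 per kb, and neighbours in this order overlapped in their libraries. Hoxa5 and Hoxc5 were lower, with means of 15.8 and 11.8 per kb.

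No Hox gene passed the test between dividing myoblasts and myotubes, in libraries in which the markers of both states did. Myog, the transcription factor that starts terminal muscle differentiation, had values of 1008 and 221 in GM against 5392 and 11502 in 3d DM, and Mki67, a marker of dividing cells, 3586 and 3659 in GM against 446 and 760 in 3d DM. Both passed the test (limma, log2 fold change GM minus 3d DM of -4.06 and 2.63, adjusted p = 2.6e-20 and 1.42e-08). All 8 myotube markers were higher in 3d DM, among them Myh3 and Ckm, and 5 of 6 markers of dividing myoblasts were higher in GM. Of 8 markers of endothelium, blood and epithelium 0 passed the filter, and 6 of them had values of 2.22 or less in all libraries. The other two were Hba-a1 of blood, at 73.0 and 13.1 in GM against 5.5 and 12 in 3d DM, and Cdh1 of epithelium, at 3.1 and 5.01 in GM against 21.8 and 29.6 in 3d DM. Of 4 adipocyte markers 1, Pparg, was tested and was higher in GM (log2 fold change 1.57, adjusted p = 0.0218), and of 5 markers of bone or cartilage 2 were tested and 1, Sox9, was higher in GM (1.37, adjusted p = 0.0138), both calls being lost with the replicate block and with any library left out. Values of the 8 myotube markers summed to 18039 and 7295 in GM, so that the GM replicates differed in muscle RNA, and the part of this in the Hox values was not tested.

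Of the 13 Hox genes that passed the filter, 6 of HoxA and 7 of HoxC, 0 were called at an adjusted p under 0.05 (limma), whereas 17.0% of the 11406 tested genes were called, 9.96% as higher in GM and 7.01% as higher in 3d DM. At an unadjusted p under 0.05 the number of Hox genes was also 0 with the deposited scaling, and the lowest adjusted p was 0.231, for Hoxc11. Under the median-of-ratios and trimmed-mean rescalings, 2 and 1 Hox genes had an unadjusted p under 0.05 (limma). The same held for 4387 and 4408 of the 11406 tested genes. The lowest adjusted p of a Hox gene was then 0.0994 and 0.0937, both for Hoxa9. The 95% intervals of the log2 fold changes all included 0. They reached from -1.64 at the lowest bound to 1.98 at the highest, with standard errors of 0.44 to 0.63, and the log2 fold changes of Myog and Mki67 lay outside all of them. In 5 of the 13 genes both GM replicates lay above both 3d DM replicates, as in 37.0% of all tested genes, and in 1 gene both lay below, as in 16.8%. In the other 7 the states overlapped. The remaining 26 Hox genes comprise 11 listed at 0 throughout and 15 that were above 0 in at least 1 library and under the filter.

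The 5 genes with higher GM values were 4 posterior genes and Hoxc5. Hoxc11, a posterior gene of hindlimb and tail, had values of 123 and 125 in GM against 41.9 and 95.4 in 3d DM (124 ± 1.78 against 68.6 ± 37.8, SD, n = 2 each). Its log2 fold change GM minus 3d DM was 0.96 (SE 0.52, 95% interval -0.06 to 1.98). The low value of 3d DM replicate 1 set much of the difference, and without that library the log2 fold change was 0.38. Hoxa9, which is known for its role in blood stem cells and leukaemia, had values of 154 and 122 in GM against 62.9 and 88.1 in 3d DM (log2 fold change 0.87, SE 0.51, adjusted p = 0.282). Hoxa11, which patterns the forearm, had values of 202 and 147 in GM against 101 and 125 in 3d DM (0.61, SE 0.49, adjusted p = 0.487). In Hoxa11, 35.2% of the exon bases lie opposite exons of antisense genes, mainly Hoxa11os, which had values of 251 and 159 in GM against 82.1 and 114 in 3d DM, and the strand setting of the counting is not given in the sources used here.

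Hoxc10, a gene of the lumbar region and hindlimb and the most abundant Hox RNA, had values of 789 and 509 in GM against 389 and 448 in 3d DM (649 ± 198 against 419 ± 41.8, SD, n = 2 each). Both GM values lay above both 3d DM values, with a log2 fold change of 0.60 (SE 0.44, adjusted p = 0.43) that was 0.28 without GM replicate 1. Hoxc5 had values of 47.4 and 34.1 in GM against 20.5 and 26.6 in 3d DM (0.76, SE 0.62, adjusted p = 0.494). In each of these 5 genes the differences did not pass the test.

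Hoxc4 was the only tested Hox gene with both GM values below both 3d DM values, at 49.2 and 73.2 in GM against 78.2 and 105 in 3d DM. Its log2 fold change was -0.59 (SE 0.54, 95% interval -1.64 to 0.47, adjusted p = 0.558). In Hoxc6 and Hoxc13, also of negative fold change, the states overlapped. Hoxc6, a gene of the thorax and forelimb, had values of 102 and 84.3 in GM against 93.5 and 124 in 3d DM. Hoxc13, known for its role in hair, had values of 149 and 105 in GM against 141 and 186 in 3d DM.

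Another 4 tested genes overlapped between states and had fold changes above 0. Hoxa10 had values of 308 and 208 in GM against 218 and 265 in 3d DM, Hoxc9 201 and 126 in GM against 130 and 189 in 3d DM, and Hoxa7 120 and 75.3 in GM against 64.7 and 118 in 3d DM. Their log2 fold changes were 0.07, 0.03 and 0.12 with the deposited scaling and turned to -0.13, -0.18 and -0.09 after rescaling by median-of-ratios factors. Hoxa5, which acts in the lung and cervical spine, had 51.7 and 22.1 in GM against 19.3 and 25.9 in 3d DM, and the difference between the GM replicates was larger than that between the states.

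**Figure D3:**
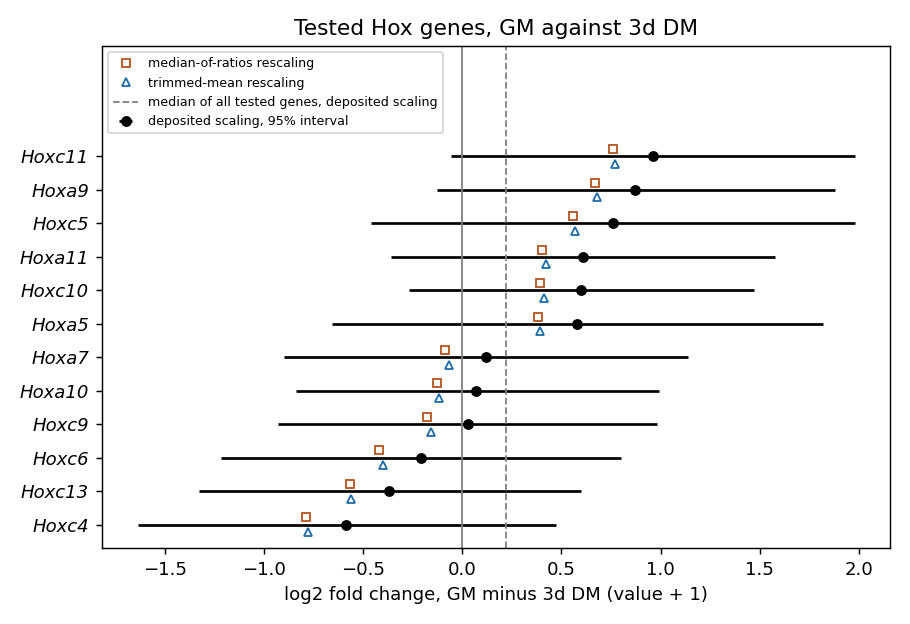
Log2 fold change GM minus 3d DM, on the log2(value + 1) scale, of 12 tested Hox genes with 95% intervals (black) and under both rescalings (open symbols); the dashed line is the median of all tested genes, 0.22. Every interval crosses 0, and the rescaled values lie to the left of the deposited ones.

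The median log2 fold change over the 13 Hox genes was 0.12, against 0.22 over all tested genes. After median-of-ratios rescaling the medians were -0.09 and 0.02, and after trimmed-mean rescaling -0.07 and 0.03. Measured from the median of all genes, 6 of the 13 lay above it and 7 below it, from 0.74 for Hoxc11 to -0.81 for Hoxc4. The replicates of each state differed in overall level. GM replicate 1 held the highest value of 8 of the 13 genes and 3d DM replicate 1 the lowest value of 7. In the same libraries 1 row without a symbol took 24.4% and 33.2% of the GM columns against 41.3% and 25.6% of the 3d DM columns, and its part in the Hox values was not tested.

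The summed HoxC value was 1494 and 1084 in GM against 918 and 1190 in 3d DM (1289 ± 290 against 1054 ± 192, SD, n = 2 each), and the summed HoxA value 913 and 637 in GM against 536 and 719 in 3d DM (775 ± 195 against 627 ± 129). The states overlapped in both clusters.

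Among the genes under the filter, those of HoxA and HoxC were all above 0 in every library, as were some of HoxB, such as Hoxb4. Hoxc8 had 28.4 and 19.1 in GM against 19.4 and 8.96 in 3d DM, Hoxa3 22.1 and 18.1 in GM against 19.9 and 15.9 in 3d DM, and Hoxa2, Hoxa4, Hoxa6 and Hoxc12 lay between 4.02 and 14.2 in every library. Hoxa13, the most posterior HoxA gene, was at 1.02 and 2.01 in GM against 4.25 and 10.6 in 3d DM, and no test was made at this level.

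m6A peaks were found on 13 Hox genes, 7 of HoxA and 6 of HoxC, and on no HoxB or HoxD gene. A peak is a region in which precipitated fragments exceed the input of the same sample, its fold enrichment is the ratio of the 2, and each peak list belongs to 1 replicate. The 4 lists held peaks on 11 and 11 Hox genes in GM and on 10 and 8 in 3d DM (11 ± 0 against 9 ± 1.41, SD, n = 2 each). For these Hox counts the exact permutation test over libraries gave p = 0.333, the smallest value that 2 libraries against 2 allow. Over all genes the lists held peaks on 7572 and 7162 genes in GM and on 7468 and 6292 in 3d DM. Of the tested genes with a symbol, 63.8% and 60.4% had a peak in GM and 62.8% and 53.5% in 3d DM. Among the 13 tested Hox genes, 12 had a peak in at least 1 list, against 76.2% of the 11253 tested genes with a symbol, and 6 had one in all 4 lists, against 42.6%. Hoxc5 was the tested gene with no peak in any list.

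The 6 genes with peaks in all 4 lists were Hoxa7, Hoxa11, Hoxc4, Hoxc6, Hoxc9 and Hoxc10. Hoxc11 and Hoxa9 had peaks in 3 lists and none in 3d DM replicate 1. Hoxc13 and Hoxa5 had peaks in 3 lists and none in 3d DM replicate 2. Hoxa10 had a peak in both GM lists, with folds of 3.02 and 3.19, and in no 3d DM list, and its RNA values overlapped between the states. Such a pattern was found in 2.67% of the tested genes with a symbol, and the reverse pattern, peaks in both 3d DM lists and no GM list, in 1.74% of them and in 0 Hox genes. Hoxa13 had a peak in 3d DM replicate 1 alone, with a fold of 16.9 at an RNA value of 4.25 in the matching input.

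**Figure D4:**
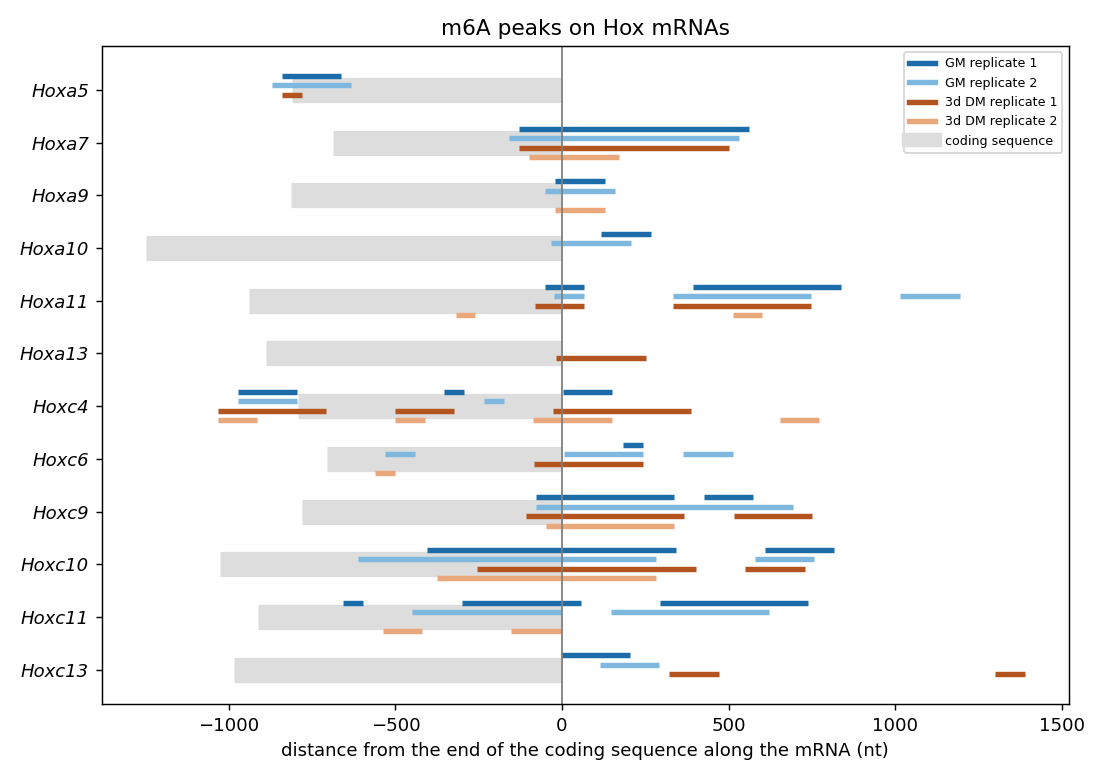
Position of each deposited m6A peak along the mRNA, as distance from the end of the coding sequence in nucleotides (horizontal axis), for 12 Hox genes with a peak, by library; grey bars are coding sequences, and for genes with several transcripts 1 is drawn. In Hoxa7, Hoxc9 and Hoxc10 the peaks of all 4 lists lie across the end of the coding sequence, and in Hoxc4 and Hoxa5 peaks lie at its start.

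On 3 of the 6 genes with peaks in all 4 lists, Hoxa7, Hoxc9 and Hoxc10, a peak covered both the end of the coding sequence and the 3′ untranslated region in every list, against 32.3% of all genes with peaks in all 4 lists. In single lists such a peak was present on 8 of 11 and 6 of 11 Hox genes in GM and on 7 of 10 and 5 of 8 in 3d DM, against 45.1%, 47.3%, 40.8% and 39.2% of all genes with a peak in those lists. The p-values that the authors' caller gave for the peak on Hoxc10 were 6.31e-31 and 5.01e-49 for the GM lists and 1e-31 and 1e-15 for those of 3d DM. The stretch common to the 4 lists was 537 bases long in Hoxc10, 387 in Hoxc9 and 271 in Hoxa7, and the coding parts of Hoxc10 and Hoxc9 are among the sequences printed above.

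The folds on Hoxc10 were 6.23 and 6.43 in GM against 5.7 and 4.81 in 3d DM, each GM value above each 3d DM value. Those on Hoxa7 were 6.6 and 8.82 in GM against 4.43 and 3.52 in 3d DM, again without overlap. By the largest fold of each list, both GM lists were higher for these 2 of the 6 genes. The same held for 21.7% of the 4987 genes with peaks in all 4 lists. Both GM lists were lower for 9.87% of the 4987 genes and for 0 of the 6. The exact permutation test gave p = 0.333 for Hoxc10 and for Hoxa7. On Hoxc10 the largest fold of every list was at the site shared by all 4 lists. With the median fold of its peaks the difference of the state means went from 1.08 to -0.005. That median also took in a weaker peak, with folds of 2.92 and 1.66 in GM and 1.94 in 3d DM replicate 1, which 3d DM replicate 2 lacked. Hoxc9 had folds of 7.04 and 28.2 in GM against 7.41 and 5.55 in 3d DM, so that GM replicate 2 alone stood apart, and without it the difference of the state means fell from 11.1 to 0.56.

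Hoxc4 had folds of 17.5 and 18 in GM against 7.05 and 25.9 in 3d DM. Both 3d DM values lay outside the range of the GM values, on opposite sides. Its highest peak lay in the 5′ untranslated region, near the start of the coding sequence, and held the GGACT of the window printed above. Peaks at the coding start were also present on Hoxa5, with folds of 10.5 and 11 in GM and 6.88 in 3d DM replicate 1. Hoxa11 had a peak within its 3′ untranslated region in all 4 lists, with folds of 5.51 and 4.21 in GM against 3.9 and 3.34 in 3d DM, and a separate coding peak in 3d DM replicate 2 with a fold of 10.9. Hoxc6 had folds of 3.32 and 4.69 in GM against 3.51 and 6.26 in 3d DM, at sites of which none was common to all 4 lists.

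**Figure D5:**
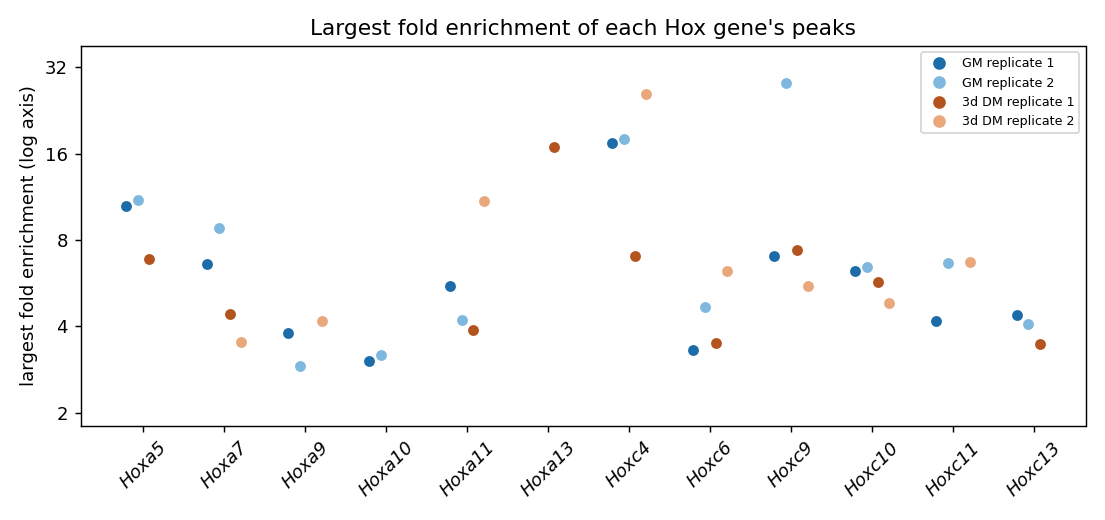
Largest fold enrichment of the m6A peaks on each of 12 Hox genes in each list (log axis); a missing point means that the list holds no peak. The highest points are 1 of Hoxc9, at 28.2, and 1 of Hoxc4, at 25.9, and Hoxa10 has points from GM only.

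Merged over lists, the Hox peaks formed 27 sites, of which 5 occurred in all 4 lists, 8 in 3, 4 in 2 and 10 in 1. The sites in all 4 lists were 1 each on Hoxa7, Hoxa11, Hoxc4, Hoxc9 and Hoxc10. GGAC, searched on the strand of the mRNA and including the GGAC within GGACT, occurred 2.75 and 3.0 times per kb of Hox peak sequence in GM against 2.82 and 3.47 times in 3d DM. Over all placed peaks the rates were 5.12 and 5.55 in GM against 5.02 and 5.5 in 3d DM, so the Hox rate was lower in each of the 4 lists. At least 1 GGAC was present in 43.5% and 59.1% of the Hox peaks in GM and in 45% and 50.0% in 3d DM, against 65.4% to 70.1% of all peaks. In these rates and shares a peak listed on several transcripts of a gene counted once for each, in Hox genes as over all genes. The lists thus held 23 and 22 Hox entries in GM and 20 and 16 in 3d DM, for 18, 18, 16 and 13 distinct peaks. The Hox peaks were shorter than all peaks by their median in each list, and a match of these letters is a description of the sequence, not a measured m6A site.

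CG dinucleotides are frequent in the promoters of developmental genes and were counted in those of Hox genes. The RefSeq promoter table of GRCm38.p6 held 22 of the 39 genes with 250 bases before the start. The count of CG in these bases had a median of 8.0 over the 7 promoters of tested Hox genes, 13 over the 17 of Hox genes not tested and 6.0 over all 32851 promoters of the table. At least 10 occurred in 42.9%, 70.6% and 37.8% of them. By cluster the median was 15.5 over the 10 HoxA and 12.5 over the 10 HoxD promoters. Hoxa9 and its paralog Hoxd9, which was listed at 0, are printed as an example of a pair of the same group, with CG in capitals. The 250 bases before Hoxa9 (chr6:52227371-52227620, minus strand) held 3 CG and those before Hoxd9 (chr2:74697513-74697762, plus strand) held 13. Hoxa9 had the lowest count among the promoters of tested Hox genes, which ran from 3 to 28. Other pairs differed from this one. Hoxa10 held 7 and 20 at its separate starts against 20 for Hoxd10. Hoxa11 held 13 against 2 and 20 at the separate starts of Hoxd11.
Hoxa9 promoter: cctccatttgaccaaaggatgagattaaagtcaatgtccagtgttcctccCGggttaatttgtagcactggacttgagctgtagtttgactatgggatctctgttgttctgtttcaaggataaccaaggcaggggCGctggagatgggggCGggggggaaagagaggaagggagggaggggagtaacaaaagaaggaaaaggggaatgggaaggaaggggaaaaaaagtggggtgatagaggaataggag
Hoxd9 promoter: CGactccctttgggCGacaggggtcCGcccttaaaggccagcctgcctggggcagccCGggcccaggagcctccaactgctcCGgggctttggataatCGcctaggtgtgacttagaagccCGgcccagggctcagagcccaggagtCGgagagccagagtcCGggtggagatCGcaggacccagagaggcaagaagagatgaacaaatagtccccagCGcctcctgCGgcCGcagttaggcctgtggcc

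Of the TALE partners of Hox proteins, 10 of 11 were tested, of which 1 was higher in GM, 2 were higher in 3d DM and 7 were not called, where 17.0% of all tested genes were called. The median log2 fold change was 0.44 against 0.22 over all tested genes. Meis2, a Meis family partner, had values of 1075 and 419 in GM against 201 and 240 in 3d DM (log2 fold change 1.61, adjusted p = 0.00357). Pbx3 had 107 and 130 in GM against 286 and 418 in 3d DM (-1.54, adjusted p = 0.00954), and Pknox2 97.1 and 30.1 in GM against 126 and 245 in 3d DM (-1.68, adjusted p = 0.00913). Meis1, another Meis family partner, had 162 and 146 in GM against 64.7 and 122 in 3d DM (0.78, adjusted p = 0.342). With any 1 of the 4 libraries left out, 0 or 1 of the 10 was called.

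All 31 genes of the Polycomb list were tested, of which 4 (12.9%) were higher in GM, 0 were higher in 3d DM and 27 were not called, with a median of 0.37. The share called was no larger than the 17.0% of all tested genes. Ezh2, the methyltransferase of Polycomb complex PRC2, had values of 705 and 877 in GM against 179 and 249 in 3d DM (log2 fold change 1.89, adjusted p = 0.000347). Phf19, an accessory subunit of PRC2, had 144 and 174 in GM against 37.2 and 51.8 in 3d DM (1.82, adjusted p = 0.00493). Cbx2, a subunit of PRC1, and Rbbp7, a histone chaperone also found in other complexes, were the other two (adjusted p = 0.0362 and 0.0441). The markers of dividing cells moved with these genes, 5 of 6 being higher in GM and their summed value falling from 13407 and 14193 to 2299 and 4128, and their part in the result was not tested. The count was 7 and 8 under the median-of-ratios and trimmed-mean rescalings, and 0 to 2 with 1 of the 4 libraries left out.

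Of 17 Trithorax genes and Hox activators 14 were tested, with 1 higher in GM, 0 higher in 3d DM and a median of 0.20. The share called was 7.1%, below the 17.0% of all tested genes, whose median was 0.22. The gene called was Psip1, a chromatin reader that recruits MLL complexes, with 975 and 932 in GM against 303 and 566 in 3d DM (log2 fold change 1.20, adjusted p = 0.0389), a call lost with any library left out, with the replicate block and with limma without the trend, and the count was 3 under both rescalings. Kmt2a, the MLL methyltransferase, had 777 and 702 in GM against 458 and 515 in 3d DM (0.60, adjusted p = 0.422). Cdx2 and Cdx4, activators of Hox genes in the embryo, were listed at 0 in all libraries.

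Of 19 noncoding RNAs of the Hox clusters 12 were in the table and 3 were tested, and 0 were called. Hotair, which lies in HoxC, had 35.7 and 40.1 in GM against 19.6 and 35.0 in 3d DM (log2 fold change 0.51, adjusted p = 0.687), and Mira, in HoxA, 148 and 86.3 in GM against 82.6 and 78.7 in 3d DM. Of the 14 genes flanking the clusters 8 were tested, with 1 higher in 3d DM and 7 not called. This was 12.5% called against 17.0% of all tested genes, with a median of -0.07 against 0.22. The gene called was Calcoco1, which lies near HoxC and has been described as an autophagy receptor and coactivator, with 1158 and 289 in GM against 1690 and 2332 in 3d DM (-1.78, adjusted p = 0.000407). The call was lost without GM replicate 2, 3d DM replicate 1 or 3d DM replicate 2. Atp5g2, also near HoxC, a subunit of mitochondrial ATP synthase, had 2214 and 1703 in GM against 1312 and 1860 in 3d DM (0.31, adjusted p = 0.72).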

How the data were processed

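Input and m6A-precipitated RNA of GM and 3d DM cells was measured in 2 libraries each. The authors aligned reads to mm10 with HISAT2 2.1.0, per the submitters' processing notes and used exomePeak to call peaks in every precipitated sample over its own input. The deposited expression table holds a TMM-normalised signal per gene made by the authors with edgeR, whose columns share 1 total. The deposited peak lists give a p-value and a fold enrichment, a ratio of precipitated to input fragments, per peak. Neither holds read numbers. The depth of the libraries is therefore unknown, and no counting error is given. Reads could not be recovered, since values between 0.5 and 12 were whole multiples (within 0.05) of the library's median value from 0.5 to 1.5 for 63.8% and 100% of the GM values and 14.8% and 37.9% of the 3d DM values.

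The filter kept genes whose value reached 25.1, which is 2 cpm of a column, in 2 or more of the 4 libraries. Their log2(value + 1) entered limma 3.58.1 in R 4.3.3, with the variance prior following intensity. The p-values were adjusted by the Benjamini-Hochberg method over all 11406 genes, and calls were made at 0.05. A fold change on this scale understates the change of low genes. The fitted prior degrees of freedom were infinite, so that standard errors came from the trend over genes of like level and not from a gene's own replicates. The 95% intervals are 1.96 standard errors on each side. Nothing in the labels says that replicates are separate cultures, so p-values measure only the spread between these samples, which may be technical. Peak counts and folds were compared by the two-sided exact permutation test. Summaries were made with pandas 2.3.3 and numpy 2.4.6 in Python 3.11.15, and plots with matplotlib 3.10.9. Simulated data served to test the limma fit.

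Every Hox gene was counted. The values of 1 Hox gene, 1 TALE gene and 1 sequence are not reported here. Other values in each library are given for genes that passed the filter or had a peak, and otherwise by range or for the highest, and from the lists for called genes (at most 6 per list) and genes picked by name (Meis1, Ezh2, Kmt2a, Hotair, Myog, Myh3, Ckm and Mki67). Outside this rule, values are also given for Lnpk, Mtx2, Evx2, Atp5g2, Mira, Hoxa11os, Cdx2, Cdx4, Hba-a1 and Cdh1. Lists held TALE partners, Polycomb genes, Trithorax genes and Hox activators, cluster noncoding RNAs, flanking genes, other homeobox genes, retinoid genes and cell markers. Members and lists were chosen with earlier results of these data known. Protein sequences were not used here. Alternatives were other filters, pseudocounts of 0.1 and 4, 2 rescalings, limma without trend, the replicate block, stricter peaks (p of at most 1e-05 or fold of at least 4), distinct peaks, median folds, each library left out and, chosen after the data were seen, GENCODE M21 exon lengths.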

Additional observations from a re-analysis of the deposited data

How the results depend on the processing

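The count of Hox genes called was 0 under all alternatives run. Relative to 1936 of all genes, the count of calls was 1298 with the replicate block, 2276 without a filter, 1436 with the filter in at least 3 libraries, 2665 and 2672 under the median-of-ratios and trimmed-mean rescalings, and 145 to 1252 with a library left out, lowest without 3d DM replicate 1. The replicate numbers have no stated common origin and formed only 2 pairs, and the lowest adjusted p of a Hox gene was 0.433 with the replicate block. Under the median-of-ratios and trimmed-mean rescalings the lowest adjusted p of a Hox gene was 0.0994 and 0.0937 (limma). The lists together held 111 tested genes, cell markers included. Before any alternative, their calls took in 5 markers of dividing myoblasts, 8 myotube markers, Pparg and Sox9. Over all tested genes 17.0% were called. Of the lists together 31 genes were called, 23 with the replicate block and 7 to 20 with a library left out, and under the block 2 Polycomb and 0 Trithorax genes were called. Polycomb calls numbered 7 and 8 under the median-of-ratios and trimmed-mean rescalings, retinoid calls 4 without a filter, and calls among the other homeobox genes 1 to 4 with a library left out.

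Under the median-of-ratios and trimmed-mean rescalings the log2 fold change turned negative for Hoxa10 (-0.13 and -0.12), Hoxa7 (-0.09 and -0.07) and Hoxc9 (-0.18 and -0.16). With a library left out it ran from -0.21 to 0.36 for Hoxa10, from -0.31 to 0.55 for Hoxa7, from -0.30 to 0.36 for Hoxc9 and from -0.01 to 1.18 for Hoxa5, and the median over the 13 genes ran from -0.21 to 0.55. The log2 fold change ran from 0.28 to 0.92 for Hoxc10, from 0.38 to 1.54 for Hoxc11, from 0.38 to 0.84 for Hoxa11, from -0.87 to -0.30 for Hoxc4, from -0.62 to -0.12 for Hoxc13 and from -0.41 to -0.01 for Hoxc6. With GENCODE exon lengths HoxC held 67.5% to 69.2% and HoxA 29.2% to 31.1% of the Hox sum per kb. The log2 ratio of the summed HoxB values ran from -0.18 to 0.53. The difference of the state means in the largest fold enrichment ran from -6.04 to 0.96 for Hoxa11, from -8.15 to 10.7 for Hoxc4 and from -2.25 to 0.495 for Hoxc6. On Hoxa11 the largest fold of 3d DM replicate 2, 10.9, was at a coding peak outside the site shared by all 4 lists. For Hoxc10 the difference was -0.005 with median folds. The cause was not tested for any of these. The number of Hox genes with a peak stayed higher in GM on average under all alternatives. Counting only peaks of p at most 1e-05, it was 5 and 7 in GM against 6 and 4 in 3d DM, so that the states overlapped. With peaks of p at most 1e-05, Hoxa11, Hoxc4 and Hoxc6 had no peak in at least 1 list and gave no value. Having 2 libraries in each state and an unknown depth limits what could be detected.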

Other observations

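Among 49 other homeobox genes of limb and trunk, 20 were tested, of which 3 were higher in GM, 2 were higher in 3d DM and 15 were not called, that is, 25.0% called against 17.0% of all tested genes, with a median log2 fold change of 0.48 against 0.22 over all tested genes. Dlx3, a Distal-less gene, had values of 481 and 489 in GM against 49.7 and 55.3 in 3d DM (log2 fold change 3.19, limma adjusted p = 2.22e-09). Dlx2 had 29.0 and 97.3 in GM against 0.634 and 18.6 in 3d DM (3.26, adjusted p = 4.68e-05), and Tshz1, a zinc finger homeobox gene, 816 and 397 in GM against 125 and 151 in 3d DM (2.04, adjusted p = 0.00014). Irx3, an Iroquois gene, was higher in 3d DM, with 104 and 108 in GM against 351 and 571 in 3d DM (-2.07, adjusted p = 0.000165), as was Zeb1 with 672 and 437 in GM against 1056 and 1497 in 3d DM (-1.21, adjusted p = 0.0327). The count of 5 called genes was 1 to 4 with a library left out.

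Of 17 retinoid signalling genes, known regulators of Hox clusters in the embryo, 8 were tested. Rarg, a retinoic acid receptor, was higher in GM, with 1711 and 1093 in GM against 529 and 686 in 3d DM (1.18, adjusted p = 0.0382). Cyp26b1, which degrades retinoic acid, was higher in 3d DM, with 12.3 and 38.1 in GM against 125 and 120 in 3d DM (-2.44, adjusted p = 0.000238). The other 6 were not called, so that 25.0% of the 8 were called against 17.0% of all tested genes. The median was 0.23, against 0.22 over all tested genes. The count of 2 was 4 of 15 without a filter and 0 or 1 with a library left out.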
